A study of Rattus norvegicus with 30 samples.

Results

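The first day after a nerve is cut was compared here in the 2 tissues that hold the injured neuron: the proximal stump of the sciatic nerve (SN), which carries its axon, and the dorsal root ganglia (DRG), which hold its cell body. For each probe the change in SN (1 d minus 0 d) was set against the change in DRG (1 d minus 0 d), and the difference between these changes, the interaction, was tested. All 41012 non-control probes of the array entered, which is every probe of the series. The groups compared hold 12 of its 30 arrays, 3 for each of SN 0 d, SN 1 d, DRG 0 d and DRG 1 d. The spread between arrays was estimated from all 30. Each gene was then placed in one of the classes nerve only, ganglion only, same direction or opposite direction.

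All samples were RNA of adult male Sprague-Dawley rats, an outbred strain, without any transgene. In each rat a 1 cm piece of the left sciatic nerve had been taken out under an injected mixture of trichloroacetaldehyde monohydrate, magnesium sulfate and sodium pentobarbital, and 0.5 cm of nerve and the L4 to L6 ganglia were collected. The 0 d groups are the controls and the 1 d groups were taken a day after surgery, and no sham-operated or contralateral group was among the samples analysed here. The methods call the arrays of a time point biological replicates, and neither they nor the labels say how many rats went into an array. The p-values measure the spread between arrays.

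A peripheral nerve holds axons, the Schwann cells that wrap them, fibroblasts and vessels, but no neuronal cell bodies. After transection, Schwann cells leave the myelinating state for a repair state, and neutrophils and then monocytes enter the stump. In the ganglion, the neurons whose axons were cut switch on a growth program led by transcription factors such as Atf3 and Jun, with neuropeptides such as galanin and VIP. Between the nerve and the ganglion, signals travel along the axon in both directions.

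The tissue labels were borne out by marker genes at 0 d. The neuronal sodium channel Scn10a had a normalized signal (log2 signal minus the 75th percentile of the array) of 5.01 ± 0.0703 in DRG and -5.58 ± 0.0568 in SN (SD, n = 3), and the satellite glia gene Fabp7 stood at 3.04 ± 0.307 against -7.92 ± 0.799. The myelin gene Mbp was the higher in SN, with means of 6.0 against 4.5. The 12 arrays lay on 4 slides. All 0 d arrays were scanned on a first day and all 1 d arrays on a second, so that scan day and time cannot be told apart within a tissue, whereas the interaction compares tissues that share both scan days. The SN 0 d arrays shared a slide with DRG 0 d replicate 1, and the SN 1 d arrays with DRG 1 d replicate 1. A fit with slide as a term therefore takes the interaction from replicate 1 alone in DRG at each day. Replicates 2 and 3 of DRG do not enter its estimate, so it is a limited check. DRG 0 d replicates 2 and 3 lay on a slide of their own and had 26941 and 28560 probes well above background, against 30227 to 35527 on the other 10 arrays. Bulk tissue was measured throughout, and here a change in the number of cells of a type and a change in RNA per cell cannot be told apart.

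For a change within a tissue to be called, limma's adjusted p (Benjamini-Hochberg) had to lie under 0.05 and the fold above 2. For the interaction the adjusted p alone decided. In SN, 6947 probes rose (16.9% of those tested) and 1450 fell (3.54%), 20.5% in all. In DRG, 2802 rose (6.83%) and 1852 fell (4.52%), 11.3% in all. The change differed between the tissues for 12265 probes (29.9%), with 5675 above 0 (the change in SN the more positive, 13.8%) and 6590 below 0 (16.1%). The median over all probes was 0.06 for the SN change, 0.05 for the DRG change and 0.04 for the interaction, on the log2 scale. Of 14932 genes taken with 1 probe each, the tissues differed for 35.4%, with 17.7% above and 17.7% below 0. With slide as a term in the model, an added fit, 5155 probes differed, 2640 above 0 and 2515 below.

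Nerve only (called in SN, not in DRG, and different between the tissues) was the class of 3690 probes (9.0% of those tested), of which 2587 rose and 1103 fell. Ganglion only held 414 probes (1.01%), 289 risen and 125 fallen. In the same direction went 2223 probes (5.42%), 2174 up and 49 down, and for 2055 of them the size of the change was not called different between SN and DRG. Among the others of this class, 140 changed more in SN and 28 more in DRG. Opposite directions were found for 61 probes (0.149%), 45 of them up in SN and down in DRG and 16 the other way. A further 7932 probes differed between the tissues while neither change passed its own call, and 2423 SN calls and 1956 DRG calls stayed unsorted because the difference was not called.

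How well a class was measured varied. Of the nerve only probes 64.3% were well above background on all 12 arrays, against 24.2% of ganglion only, 22% of same direction and 24.6% of opposite direction. Of the 1852 probes called down in DRG, 1747 were well above background on no DRG array at 0 d, so that most of these falls lie between values that the array did not resolve. Among the 25484 probes well above background on all 12 arrays, 2371 were nerve only (9.30%, with 1464 up and 907 down) and 100 ganglion only (0.392%, with 88 up and 12 down). A further 490 were same direction (1.92%, with 488 up and 2 down) and 15 opposite (0.0589%, with 8 up in SN and 7 up in DRG). Among them the interaction was called for 37.9%, with 16.0% above and 21.9% below 0. Without DRG 0 d replicate 1, the array that shared a slide with the SN 0 d arrays, the ganglion only class grew from 414 to 2325 probes, 1954 of them fallen. The split of the SN calls also moved with the scaling, with 82.7% of them up in the scaling used and 56.7% up after quantile normalization, and 70.1% against 49.0% of the nerve only class.

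A nerve only call does not by itself show that the ganglion stood still. Of the nerve only probes, 1700 of the 2587 risen and 999 of the 1103 fallen had a DRG change whose 95% confidence interval lay within 2-fold in either direction. Among ganglion only probes the SN interval lay within 2-fold for 188 of 289 risen and 40 of 125 fallen.

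**Figure D1:**
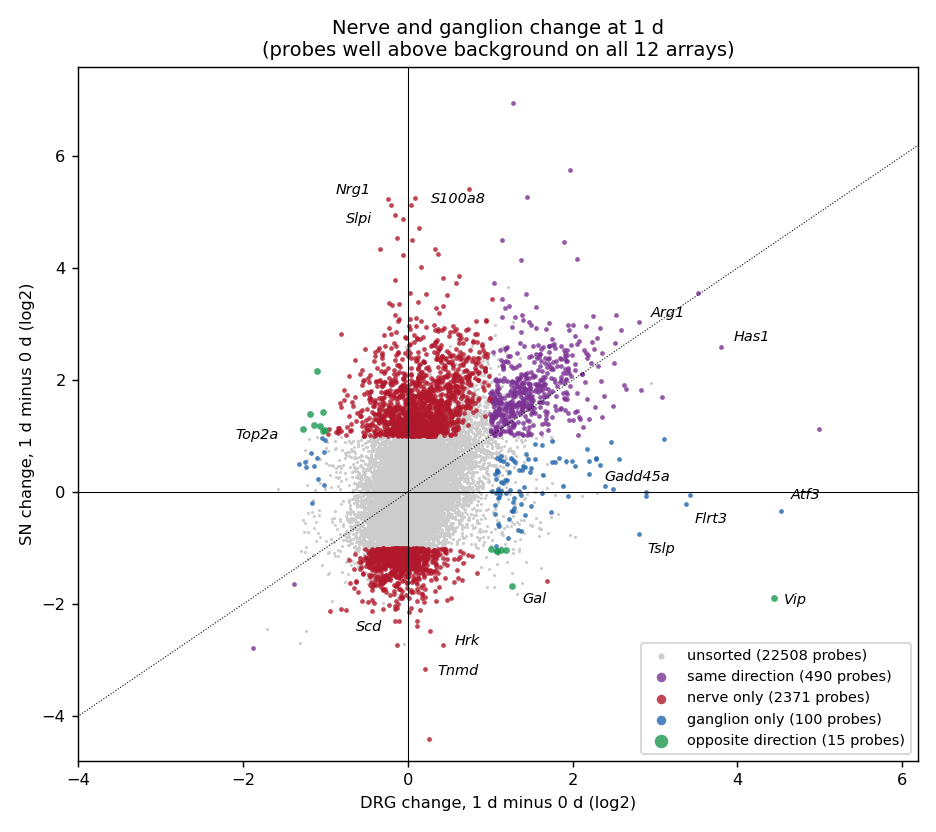
Change at 1 d in DRG (x axis) against the change in SN (y axis), both log2, for the 25484 probes well above background on all 12 arrays. Points are coloured by class, the dotted line marks equal change, and the named genes lie far from it (Nrg1, Atf3, Vip) or near it (Arg1).

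Nerve only, upregulated. Of the genes detected well above background on each of the 12 arrays, the nerve only genes with the largest interaction were Nrg1, Serpinb10, S100a8 and Slpi. Nrg1 encodes neuregulin 1, a growth factor for Schwann cells. On the SN arrays its signal was -4.94, -4.33 and -4.64 at 0 d and 0.42, 0.53 and 0.84 at 1 d. On the DRG arrays it was 2.31, 2.33 and 2.39 at 0 d and 2.15, 2.17 and 2.0 at 1 d. The nerve thus started far below the ganglion and ended below it still. The groups of SN did not overlap, which the choice of named genes required. The SN change was 37.6-fold and the interaction 5.47 ± 0.21 (SE, limma adjusted p 9.34e-14), and a second Nrg1 probe, with changes of 4.54 and -0.13, fell in the same class. The probe lies at chr16:64124972-64125031 on build rn4, the build of the array annotation, which gives the gene and not the exon.

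S100a8 encodes a calcium-binding protein that neutrophils hold in large amounts. Its SN signal went from -2.59, -2.77 and -2.82 to 2.56, 2.06 and 2.98, with an SN change of 38.3-fold. In DRG it was 1.6, 0.25 and -0.07 at 0 d and 0.78, 0.47 and 0.79 at 1 d, so that the DRG arrays overlapped and replicate 1 stood highest at 0 d. The interaction was 5.17 ± 0.47 (adjusted p 6.13e-08), and both other probes of the gene were nerve only. Serpinb10, a protease inhibitor of blood-forming cells, and Slpi, a secreted inhibitor of leukocyte proteases, had interactions of 5.33 ± 0.43 and 5.11 ± 0.60, with DRG changes of -0.20 and -0.15.

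Genes that the nerve did not show at 0 d give a lower bound only. Mcemp1, a membrane protein of myeloid cells, was well above background on no SN array at 0 d and on all 3 at 1 d, at least 32-fold higher. Trh, the precursor of thyrotropin-releasing hormone, was at least 29.7-fold higher in SN, and the serine protease gene Prss22 at least 19.6-fold. In these bounds the 1 d mean is set against the mean, over the 0 d arrays, of the lowest signal well above background or the probe's own signal where that is higher. Neither Mcemp1 nor Trh was well above background on any DRG array at 1 d. Of the genes of neuronal lists, Nppb, a natriuretic peptide precursor, rose from -5.71, -6.61 and -6.61 to 1.63, 1.43 and 1.29 in SN, with 1 of 3 arrays well above background at 0 d, while DRG went from 0.96, 1.00 and 0.87 to 0.03, 0.66 and 0.44. Its interaction was 8.33 ± 0.39 (adjusted p 2.2e-12). The 2 other Nppb probes were dimmer and fell in other classes, so that the size of this difference rests on 1 probe.

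Of 35 monocyte and macrophage markers on the array, 23 rose in SN (65.7%, beside 16.9% of all probes) and none was called in DRG. The tissues differed for 25 (71.4%, beside 35.4% of genes taken with 1 probe each), 24 of them with the larger rise in SN. The median SN change of the list was 1.48, the median DRG change 0.04 and the median interaction 1.55, beside medians of 0.06, 0.05 and 0.04 over all probes. Msr1, a scavenger receptor, rose by 3.86 ± 0.28 (SE) in SN with a DRG change of 0.63 ± 0.28, and Gpnmb, a glycoprotein of phagocytes, by 3.53 ± 0.17 with 0.22 ± 0.17. The lysosomal marker Cd68 rose by 1.41 ± 0.17 with a DRG change of -0.22 ± 0.17. Complement genes of resident macrophages did not follow. C1qa, C1qb and C1qc had SN changes of -0.63, -0.65 and -0.20, and for C1qb the interaction was called below 0 (-0.57, adjusted p 0.0153).

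Of 18 neutrophil markers, 11 rose in SN (61.1%, beside 16.9% of all probes). In DRG 2 rose and 1 fell (16.7%, beside 11.3% of all probes called there). The tissues differed for 10 (55.6%, beside 35.4% of genes taken with 1 probe each), 9 of them with the larger value in SN (median interaction 1.78). The mean signal of the list per array ran from -5.24 to -4.99 at SN 0 d and from -3.07 to -2.52 at SN 1 d. In DRG it ran from -4.40 to -3.41 at 0 d and from -3.90 to -3.53 at 1 d, so that the DRG groups overlapped. Mmp9, a matrix protease that neutrophils carry, had an interaction of 5.55 ± 1.00 (adjusted p 0.000224), and its DRG 0 d arrays were far apart, at -0.30, -4.52 and -5.12. The 2 that rose in DRG, Csf3r, the receptor of granulocyte colony-stimulating factor, and the chemokine receptor Cxcr1, rose in SN as well, by 4.17 and 1.99 against 1.88 and 1.27. Hdc, the enzyme that makes histamine, was the marker that differed the other way, with changes of 0.02 in SN and 1.00 in DRG.

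Of 28 chemokines, 15 rose in SN (53.6%, beside 16.9% of all probes) and 3 in DRG (10.7%, beside 6.83%). The tissues differed for 15 (53.6%, beside 35.4% of genes taken with 1 probe each), 14 with the larger change in SN. Ccl2, which draws monocytes, went from 1.28, 1.33 and 1.65 to 5.25, 5.08 and 5.16 in SN and from 2.56, 2.84 and 3.06 to 3.29, 3.46 and 3.47 in DRG. In both tissues every 1 d array lay above every 0 d array, but the DRG change of 0.58 did not pass the call and the interaction was 3.16 ± 0.30 (adjusted p 8.37e-08). Cxcl2, which draws neutrophils, had changes of 5.07 and 0.62, and Cxcl14 of 4.87 and -0.06. Ccl20 was at least 14.2-fold higher in SN, and it was well above background on no DRG array at 0 d or 1 d. The chemokine with the opposite preference was Xcl1, lymphotactin, which was at least 5.33-fold higher in DRG at 1 d with an SN change of 0.83.

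A further list held 34 genes of interleukins, their receptors, the cytokines of the interleukin 6 family and prostaglandin synthesis. In SN 19 rose (55.9%, beside 16.9% of all probes), and in DRG 6 rose and 1 fell (20.6%, beside 11.3%). The tissues differed for 17 of the 34, beside 35.4% of genes taken with 1 probe each. Of these 17, 14 had the larger change in SN. Il1rn, the natural antagonist of interleukin 1, rose by 4.33 ± 0.22 in SN with 0.34 ± 0.22 in DRG. Clcf1, a cytokine that acts on neurons, rose by 3.39 ± 0.16 with 0.12 ± 0.16. Il1rl1, the receptor of interleukin 33, had changes of 5.65 and 0.60 on the probe taken, whereas its other probe gave 0.82 and 0.79. Il24 and Tnfaip6 differed the other way, with DRG changes of 1.64 and 2.29 against SN changes of 0.30 and 0.61. A second Tnfaip6 probe was called in both tissues, at 1.34 in SN and 2.36 in DRG.

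The Schwann cell repair list held 34 genes, of which 11 rose and 1 fell in SN (35.3%, beside 20.5% of all probes). In DRG 4 rose and 1 fell (14.7%, near the 11.3% of all probes). The tissues differed for 16 (47.1%, beside 35.4% of genes taken with 1 probe each), 12 of them above 0. Ngfr, the p75 neurotrophin receptor, went from 0.56, 0.85 and 0.36 to 2.53, 2.38 and 2.59 in SN. In DRG, where neurons carry it, it was 5.01, 4.98 and 4.88 at 0 d and 4.77, 4.70 and 4.78 at 1 d. The interaction was 2.12 ± 0.15 (adjusted p 2.1e-09). Shh, sonic hedgehog, had changes of 3.24 ± 0.33 and 0.29 ± 0.33, and Ucn2, urocortin 2, of 6.92 and 0.96, and for both genes 2 of 3 SN arrays were well above background at 0 d. The median interaction of this list was 0.50 and became -0.01 with slide as a term, although the genes named in this paragraph stayed called there.

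**Figure D2:**
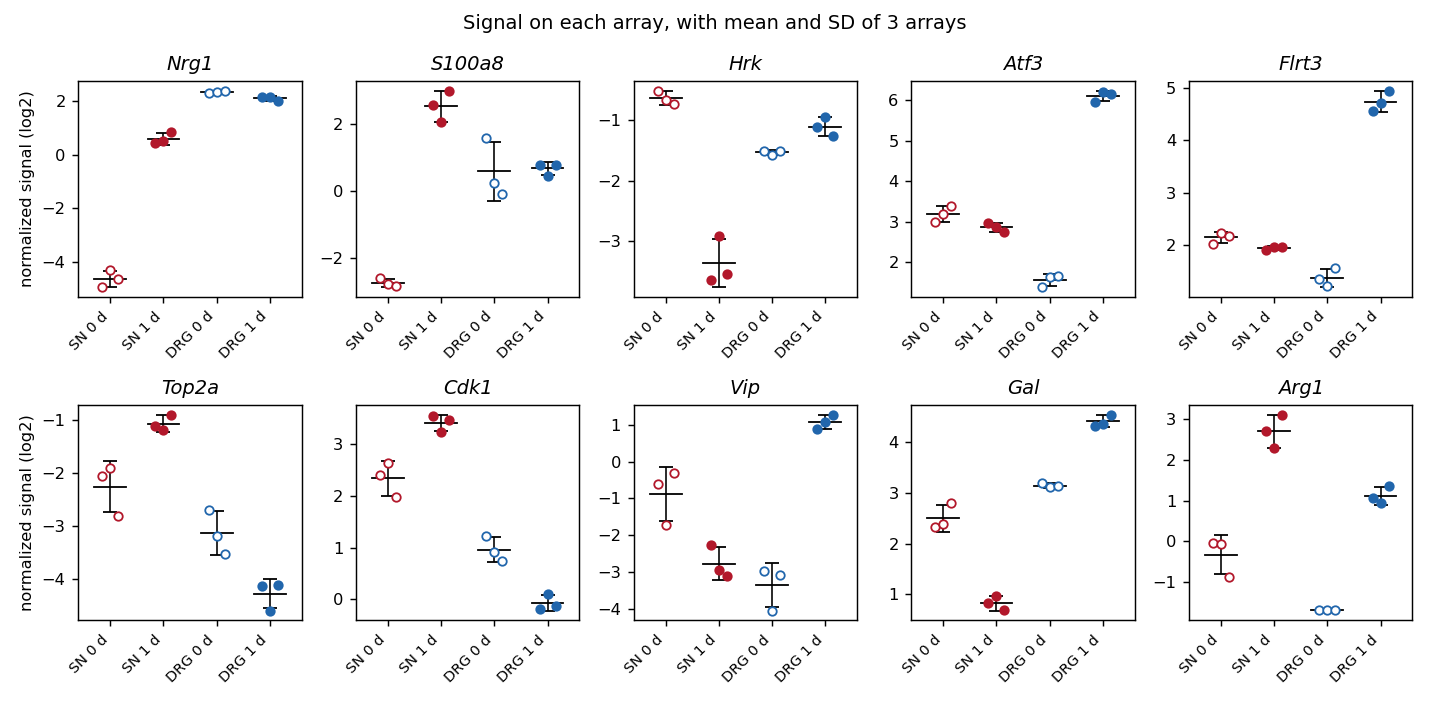
Normalized signal (log2) of 10 genes on each of the 12 arrays, open circles for 0 d, filled circles for 1 d, SN in red and DRG in blue, with the mean and SD of 3 arrays. Nrg1 and S100a8 changed in SN, Atf3 and Flrt3 in DRG, Arg1 in both, and Top2a, Cdk1, Vip and Gal in opposite directions.

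Nerve only, downregulated. The named genes that fell in SN alone were Tnmd, Hrk, C1qtnf3 and Scd. Hrk encodes a pro-apoptotic protein of the Bcl-2 family. In SN it went from -0.51, -0.66 and -0.73 to -3.64, -2.91 and -3.54, a 6.62-fold fall. In DRG it was -1.51, -1.58 and -1.50 at 0 d and -1.11, -0.95 and -1.26 at 1 d, above the 0 d arrays in each case but with a change of 0.42 that was not called. The interaction was -3.15 ± 0.28 (adjusted p 4.51e-08), and the other Hrk probe fell in the same class. Scd, stearoyl-CoA desaturase, went from 4.24, 4.02 and 2.55 to 1.28, 1.31 and 1.03 in SN, with a DRG change of 0.12 and an interaction of -2.51 ± 0.43 (adjusted p 0.000148). Replicate 3 of SN 0 d stood apart from the other 2 for this gene. Tnmd, a membrane protein of tendon and connective tissue, had an interaction of -3.37 ± 0.93 (adjusted p 0.00825), and its DRG 0 d arrays ranged from -5.79 to -2.75. C1qtnf3, a secreted protein related to adiponectin, had one of -2.76 ± 0.66 (adjusted p 0.00312), and both of its probes were nerve only.

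Scd also belongs to the list of cholesterol synthesis, its control and neighbouring lipid enzymes. Of these 29 genes, 5 fell in SN (17.2%, beside 3.54% of all probes), which were Scd, Lss, Fasn, Tm7sf2 and Hmgcs1. None was called in DRG, and 22 differed, all 22 with the lower change in SN. That is 75.9% of the list, beside 29.9% of all probes and 35.4% of genes taken with 1 probe each. The median change was -0.74 in SN and 0.12 in DRG, and 28 of the 29 interactions were below 0. Lss, which closes the sterol ring, fell by 1.45 on the log2 scale, Hmgcs1, an early enzyme of the pathway, fell by 1.09, and the sterol reductase Tm7sf2 fell by 1.13, with DRG changes of -0.22, 0.04 and 0.00. The fatty acid synthase gene Fasn fell by 1.29 with a DRG change of -0.13. With slide as a term, 14 of the 29 were called, all below 0.

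Of 26 myelin and mature Schwann cell genes, 5 fell in SN (19.2%, beside 3.54% of all probes), among them Mag, Mal, Aspa and Mpdz. None was called in DRG and 9 differed, all below 0, with a median interaction of -0.53. These 9 are 34.6% of the list, near the 35.4% of genes taken with 1 probe each, and with slide as a term 4 were called, all below 0. Aspa, which frees acetate for lipid synthesis, had changes of -1.39 and -0.14, and Mal, a proteolipid of myelin membranes, of -1.24 and -0.24. Mbp, myelin basic protein, had -0.41 and -0.32 and was not called different between the tissues. Of 44 matrix genes, 27 differed (61.4%, beside the same 35.4%), 9 above and 18 below 0. The calls within a tissue were mostly rises. In SN 11 matrix genes rose and 4 fell (34.1%, beside 20.5% of all probes), and in DRG 6 rose (13.6%, beside 6.83%). Tnc, tenascin C, rose by 2.49 ± 0.22 in SN with -0.31 ± 0.22 in DRG, and Vcan, versican, by 1.68 with 0.21. Among those below 0 were Fmod, fibromodulin, at -1.70 in SN and 0.38 in DRG, and Postn, periostin, at -1.52 and 0.33.

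**Figure D3:**
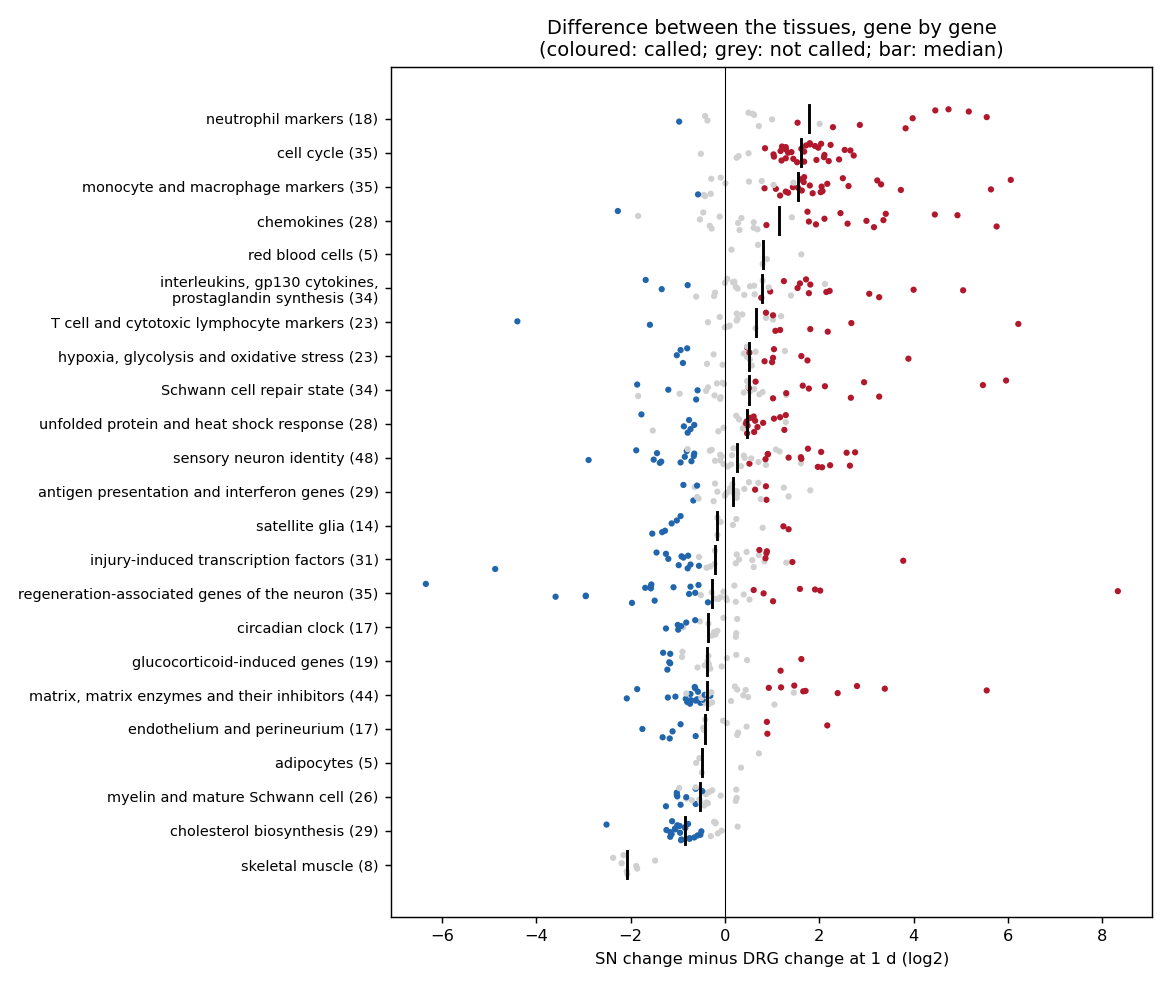
SN change minus DRG change at 1 d (log2, x axis) for each gene of 23 lists (y axis, number of genes in parentheses). Red and blue points were called above and below 0, grey points were not called and the bar is the median, which is 1.62 for the cell cycle and -0.84 for cholesterol synthesis.

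Ganglion only. The 4 genes that led this class were Atf3, Flrt3, Tslp and Gadd45a, and each rose. Atf3, a transcription factor used as a marker of injured neurons, went from 1.40, 1.63 and 1.67 to 5.95, 6.2 and 6.14 in DRG, a 23.1-fold rise. In SN it was already at 2.99, 3.2 and 3.4 at 0 d and stood at 2.97, 2.87 and 2.75 at 1 d. The ganglion therefore passed from below to above the nerve, and the interaction was -4.87 ± 0.16 (adjusted p 7.62e-15). The probe lies at chr13:107191691-107191749 on rn4. Flrt3, an adhesion and axon guidance receptor, rose 10.4-fold in DRG, from 1.35, 1.2 and 1.55 to 4.56, 4.72 and 4.95. In SN it was 2.02, 2.23 and 2.17 at 0 d and 1.89, 1.95 and 1.95 at 1 d. Its interaction was -3.59 ± 0.18, and both probes of the gene were ganglion only.

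Gadd45a, a stress protein induced by DNA damage, rose 7.40-fold in DRG, from 2.01, 1.68 and 1.80 to 4.76, 4.76 and 4.63, with an SN change of -0.06. Tslp, a cytokine best known from epithelia, rose 7.01-fold in DRG, from -2.87, -2.73 and -2.70 to -0.08, 0.00 and 0.20. In SN its arrays went from -1.70, -1.74 and -1.56 to -2.25, -2.45 and -2.53, without overlap, and this change of -0.74 was under the fold needed for a call. The interaction was -2.95 ± 0.16 for Gadd45a and -3.55 ± 0.16 for Tslp.

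Genes that were well above background on no DRG array at 0 d were, beside Xcl1, Hpd, an enzyme of tyrosine breakdown, at least 2.45-fold higher, and Mip, a water channel of the lens, at least 2.42-fold higher. Granzyme B, Gzmb, the killing protease of cytotoxic lymphocytes, had a DRG change of 4.95 ± 0.45 and an SN change of 0.55 ± 0.45, with 2 of 3 DRG arrays well above background at 0 d. The probes that the files also name Gzmb, described as granzyme-like proteins, changed in both tissues, by 2.30 and 2.47 on the first and 2.24 and 1.87 on the second. Of the 23 T cell and cytotoxic lymphocyte markers, 3 rose in DRG (13.0%, beside 6.83% of all probes), which were Gzmb, Cd5 at 1.02 and Cd8b at 1.04. More of the 23 were called in SN, where 9 rose and 1 fell (43.5%, beside 20.5% of all probes). The median change of the list was 0.84 in SN and 0.16 in DRG. Cd5, a surface protein of lymphocytes, and Cd8b, a chain of the CD8 coreceptor, rose in SN as well, by 1.09 and 3.73. Cd8a, the other chain, had changes of 6.17 in SN and -0.05 in DRG, and it was well above background on no DRG array.

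Of 31 injury-induced transcription factors, 11 rose in SN (35.5%, beside 16.9% of all probes) and 10 in DRG (32.3%, beside 6.83%), 4 of them in both. The tissues differed for 17 (54.8%, beside 35.4% of genes taken with 1 probe each), 6 above and 11 below 0. Jun, the partner of Atf3, rose from 2.93, 2.94 and 3.13 to 4.21, 4.26 and 4.26 in DRG, while in SN it was 3.09, 3.43 and 2.81 at 0 d and 3.22, 3.08 and 3.16 at 1 d. Smad1, of the bone morphogenetic protein pathway, and Crem, which acts on cAMP response elements, rose by 1.06 and 1.2 in DRG with SN changes of -0.39 and 0.22. On the side of the nerve stood Fosl1, a partner of Jun, which rose in both tissues, by 5.75 ± 0.29 in SN and 1.97 ± 0.29 in DRG, with an interaction of 3.78 ± 0.42 (adjusted p 8.05e-07). Junb, Stat3 and Rel passed the call in SN alone, at 1.6, 1.42 and 1.01, with DRG changes of 0.73, 0.69 and 0.13 that were not called.

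The list of regeneration-associated genes of the neuron held 35 genes. In SN 11 rose and 2 fell (37.1%, beside 20.5% of all probes), and in DRG 14 rose (40.0%, beside 6.83%). The tissues differed for 23, 7 above and 16 below 0 (65.7%, beside 35.4% of genes taken with 1 probe each). Adcyap1, the neuropeptide PACAP, rose by 2.57 ± 0.19 in DRG with 0.60 ± 0.19 in SN. Sema6a, a semaphorin, and Stmn4, a regulator of microtubules, rose by 2.28 and 2.03 with SN changes of 0.59 and 0.46. Ucn, urocortin, rose by 2.46 with 0.90. Gap43, the classical growth cone protein, was not called in either tissue, at -0.08 and 0.42.

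The ganglion only genes that fell were Inhbb, Bub1b, Fam111a and Racgap1, and these falls were small. Inhbb, a subunit of activin, went from 1.82, 1.54 and 1.68 to 0.51, 0.91 and 0.49 in DRG, a 2.06-fold fall, and its other probes were not sorted here. Bub1b of the spindle checkpoint and Racgap1 of cytokinesis fell 2.0-fold and 2.38-fold in DRG, and another probe of Bub1b, with 1.03 and -0.96, was nerve only. Fam111a, which acts at replication forks, fell 2.50-fold. All 4 had SN changes above 0, between 0.49 and 0.97, under the fold for a call.

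Of 48 genes of sensory neuron identity, 11 rose and 5 fell in SN (33.3%, beside 20.5% of all probes). The tissues differed for 27 (56.2%, beside 35.4% of genes taken with 1 probe each), 15 above and 12 below 0. The DRG changes were small (median -0.13). The list's median SN change was 0.29 and turned to -0.22 after quantile normalization, so that no direction is given for it. Scn10a was among those that rose in SN, by 2.29 ± 0.30 with -0.30 ± 0.30 in DRG, and the peptide gene Calcb rose by 2.76 ± 0.22 with 0.11 ± 0.22. The receptor Ret and the channel gene Kcnk2 fell in SN by 1.44 and 1.63, with DRG changes of 0.00 and -0.12. The only DRG call of the list was Kcnd3, a potassium channel, at 2.89. Both probes that the files name Kcnd3 lie on rn4 beside the 2 Flrt3 probes on chromosome 3, all 4 within 1474 bases. The first of them, at chr3:128922797-128922856, overlaps a Flrt3 probe by 26 bases and reads the opposite strand, so that this value is not given for the channel. Without it, 0 of 47 genes rose in DRG.

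Same direction. Ranked by the smaller of their changes, the leading genes that rose in both tissues were Arg1, Has1, Reg3a and Coch. Arg1, arginase, whose product polyamines favour axon growth, went from -0.04, -0.07 and -0.87 to 2.71, 2.29 and 3.12 in SN. In DRG it went from -1.68, -1.70 and -1.70 to 1.06, 0.94 and 1.35. These are changes of 8.19-fold and 6.98-fold, and their difference was 0.23 with a 95% interval of -0.42 to 0.88 (adjusted p 0.612). Reg3a, a secreted lectin of injured tissue, rose 8.97-fold and 5.77-fold, and Coch, cochlin, 7.81-fold and 4.49-fold, though another Coch probe was called in neither tissue. Has1, a hyaluronan synthase, rose 6.06-fold in SN and 14.0-fold in DRG, and here the difference was called (-1.21 ± 0.40, adjusted p 0.0271).

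Il6, the cytokine interleukin 6, was well above background on no 0 d array of either tissue and on all 1 d arrays of both. It was at least 14.3-fold higher in SN and at least 7.07-fold higher in DRG, and at 1 d the arrays stood at -2.70, -2.36 and -2.63 in SN and at -3.00, -3.06 and -2.98 in DRG. Il1a followed the same pattern, at least 1.91-fold higher in SN and 2.16-fold in DRG. Of the regeneration list, Ecel1, a protease of injured neurons, rose by 2.50 and 2.60 with a difference of -0.10 ± 0.24. The muscle LIM protein Csrp3 rose by 3.55 and 3.53, with a standard error of 1.62 for the difference. The glial filament gene Gfap rose by 2.51 and 1.71, without a called difference. Vgf, a neuropeptide precursor named after its values were seen, had the largest difference of this class within the well-detected set of 25484 probes, with changes of 6.96 in SN and 1.28 in DRG. The number of same direction probes whose interaction interval lay within 2-fold was 361 of the 2174 that rose, so that for most of them a difference in size was neither called nor excluded by its interval.

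Down in both tissues were Zbtb16, a transcription factor induced by glucocorticoids, and Fam13a1. Zbtb16 fell 6.85-fold in SN and 3.66-fold in DRG, where 1 d replicate 2 had no value and was left out of the fit. Its 0 d arrays ranged from -2.69 to 0.20 in SN and from -3.7 to -1.6 in DRG, and its DRG call was lost without DRG 0 d replicate 1 or 2 or 1 d replicate 1 or 3. A second Zbtb16 probe, at -1.07 and -0.83, was not sorted. Fam13a1 fell 3.12-fold and 2.61-fold.

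Opposite direction, cell cycle. The named genes that rose in SN and fell in DRG, Ttk, Pbk, Top2a and Cdk1, are all genes of mitosis. Top2a encodes topoisomerase II alpha, which untangles chromosomes. Its SN arrays went from -2.05, -1.90 and -2.81 to -1.11, -1.19 and -0.89. Its DRG arrays went from -2.70, -3.18 and -3.53 to -4.13, -4.60 and -4.11. Neither pair of groups overlapped, which the choice of named genes required. The tissues moved apart by 2.33 ± 0.29 (95% interval 1.74 to 2.93, limma adjusted p 3.05e-06), with a second probe in the same class. Cdk1, the kinase that drives entry into mitosis, went from 2.40, 2.64 and 1.97 to 3.54, 3.24 and 3.47 in SN and from 1.23, 0.91 and 0.74 to -0.18, 0.10 and -0.13 in DRG, an interaction of 2.11 ± 0.20 (adjusted p 1.32e-07). Ttk of the spindle checkpoint had changes of 1.39 and -1.19, and its other probe was nerve only, at 1.54 and -0.67. Pbk, a mitotic kinase, had 1.13 and -1.27. Melk, another mitotic kinase well above background on all 12 arrays, had 1.1 and -1.01 and was named after its values were seen.

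Of the 35 genes of the cell cycle list, 20 rose in SN (57.1%, beside 16.9% of all probes) and none fell. In DRG 6 fell (17.1%, beside 4.52% of all probes) and none rose. The tissues differed for 31, all 31 above 0. Of these genes, 18 were nerve only, 4 ganglion only and 2 opposite. The 31 are 88.6% of the list, beside 13.8% of all probes and 17.7% of genes taken with 1 probe each above 0. Changes were above 0 for 33 of the 35 genes in SN and for 7 in DRG, with medians of 1.09 and -0.46 and a median interaction of 1.62. The mean signal of the list ran from -1.38 to -0.89 on the SN 0 d arrays, from -0.08 to 0.08 at SN 1 d, from -2.0 to -1.6 at DRG 0 d and from -2.37 to -2.25 at DRG 1 d, and in neither tissue did the days overlap. Mcm5, of the replicative helicase, rose by 3.03 ± 0.20 in SN with 0.37 ± 0.20 in DRG, and Cdc6, which loads that helicase, by 2.18 ± 0.18 with -0.55 ± 0.18. Aurkb, a kinase of chromosome segregation, had 0.44 and -1.24, and Kif20a, a motor of cytokinesis, 0.24 and -1.10. Ccnd1, the cyclin of entry into the cycle, was called in neither tissue (0.44 and 0.19). With slide as a term, 30 of the 35 were called, all above 0 and with a median of 1.80. The myeloid markers described above rose on the same SN arrays, and which cells carried the cell cycle transcripts was not tested.

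**Figure D4:**
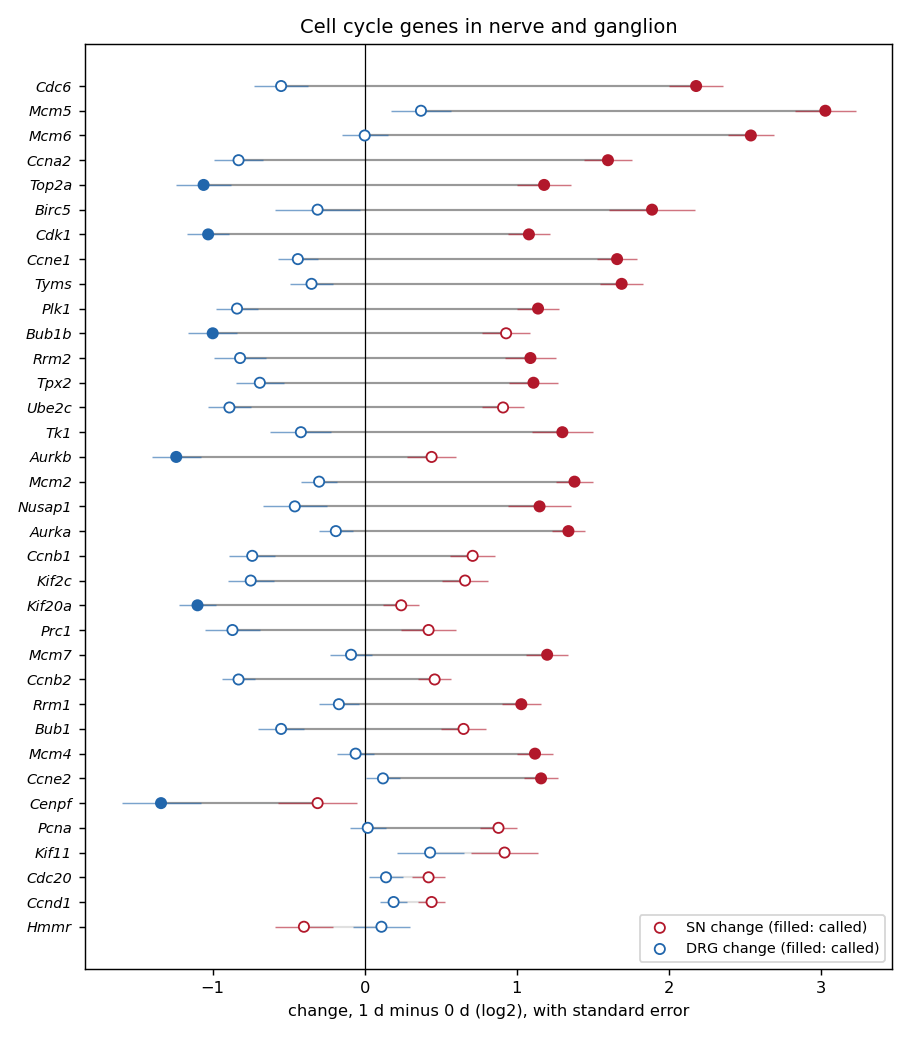
Change at 1 d (log2, x axis, with standard error) of 35 cell cycle genes (y axis) in SN (red) and DRG (blue), filled where called. Of the 31 genes joined by a dark line, whose change differed between the tissues, each has its SN point to the right.

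The promoters of Top2a and Cdk1 are shown as examples of genes that rose in SN and fell in DRG, with those of Vip and Gal, which moved the other way. Each is the 250 bases before the annotated start in RefSeq on build GRCr8, 5′ to 3′ on the strand of the gene. In Top2a and Cdk1 the capitals mark CCAAT, the site of the factor NF-Y, and TTTGAA, the core of the cell cycle genes homology region, and in Vip and Gal they mark TGACG, the core of the cAMP response element. All were searched on both strands, so that the capitals can spell the reverse complement of a motif, and the marked sites do not overlap. The positions are chr10:84473094-84473343 (minus strand) for Top2a, chr20:19265043-19265292 (plus) for Cdk1, chr1:44470230-44470479 (plus) for Vip and chr1:210084573-210084822 (minus) for Gal.
Top2a: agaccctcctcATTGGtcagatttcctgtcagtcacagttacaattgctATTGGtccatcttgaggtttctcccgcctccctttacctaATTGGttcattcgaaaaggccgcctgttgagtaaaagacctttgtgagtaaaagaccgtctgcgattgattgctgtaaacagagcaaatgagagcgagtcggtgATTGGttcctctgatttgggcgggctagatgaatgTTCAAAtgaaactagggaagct
Cdk1: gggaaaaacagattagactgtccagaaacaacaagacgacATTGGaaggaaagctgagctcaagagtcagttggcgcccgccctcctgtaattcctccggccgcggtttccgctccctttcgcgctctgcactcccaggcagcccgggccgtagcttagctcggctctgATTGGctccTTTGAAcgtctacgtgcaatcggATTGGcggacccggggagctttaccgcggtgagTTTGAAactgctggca
Vip: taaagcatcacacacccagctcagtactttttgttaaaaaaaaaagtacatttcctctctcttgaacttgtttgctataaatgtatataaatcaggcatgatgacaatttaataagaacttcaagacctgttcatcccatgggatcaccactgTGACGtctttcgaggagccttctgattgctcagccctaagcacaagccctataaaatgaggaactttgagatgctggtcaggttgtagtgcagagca
Gal: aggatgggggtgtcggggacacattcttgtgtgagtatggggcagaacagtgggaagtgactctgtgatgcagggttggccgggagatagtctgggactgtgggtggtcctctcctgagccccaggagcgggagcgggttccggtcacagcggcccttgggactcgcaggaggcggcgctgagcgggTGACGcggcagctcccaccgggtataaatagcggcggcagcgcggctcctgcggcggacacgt
Top2a held 4 CCAAT and 1 TTTGAA and Cdk1 held 3 and 2, while Vip and Gal held none of either and 1 TGACG each. Of 27457 promoters of this length, 34.3% held CCAAT, 16.0% TTTGAA and 19.0% TGACG. Of the 26 cell cycle genes with an entry, 18 held CCAAT, 8 TTTGAA and 9 TGACG, and of 23 regeneration-associated genes, 7, 3 and 9 did. A match of letters is a description of the window and not a bound site.

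Opposite direction, neuropeptides. Vip had the largest interaction of all probes well above background on all 12 arrays. This peptide widens vessels and is made by injured sensory neurons. In DRG its signal went from -2.97, -4.05 and -3.07 to 0.89, 1.09 and 1.28, a 21.8-fold rise. In SN it went from -0.60, -1.72 and -0.32 to -2.26, -2.94 and -3.12, a 3.72-fold fall. At 0 d every SN array thus stood above every DRG array, and at 1 d the order was turned. The interaction was -6.34 ± 0.43 (95% interval -7.24 to -5.44, adjusted p 7.73e-10). Gal, the precursor of galanin, went from 3.20, 3.11 and 3.13 to 4.33, 4.37 and 4.55 in DRG and from 2.32, 2.38 and 2.81 to 0.82, 0.97 and 0.68 in SN. Its rise was 2.41-fold, its fall 3.20-fold and the interaction -2.95 ± 0.19 (adjusted p 2.12e-10).

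Mapt, the microtubule protein tau, had changes of -1.04 ± 0.34 in SN and 1.2 ± 0.34 in DRG. Its arrays did not overlap between the days in either tissue, which the choice of named genes required. Its other probe fell in SN as well, by 1.37, but had a DRG change of -0.27, so that the rise in DRG rests on 1 probe. Mstn, myostatin, lay in the same class with -1.02 and 1.01 and was named after its values were seen, since its arrays overlapped in a tissue. Skeletal muscle markers varied strongly between arrays. Their mean signal ran from 3.27 to 7.46 on the SN 0 d arrays and from 1.69 to 4.46 on the DRG 0 d arrays, and all 8 had SN changes below 0 and DRG changes above 0 (medians -0.64 and 1.37) with none called. Their part in the Mstn and Csrp3 values was not tested.

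Of the 45 probes called up in SN and down in DRG, 8 were well above background on all 12 arrays. Those were, beside the 2 Top2a probes, Ttk, Pbk, Cdk1, Melk and 2 probes without a gene symbol. For the glial growth factor gene Gdnf the probes disagreed, since the dimmer one, well above background on 3 of 12 arrays, was called up in SN (4.47) and down in DRG (-1.02), and the brighter one, on all 12, gave 0.83 and 0.43 with no call.

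Other lists. Of 28 genes of the unfolded protein and heat shock responses, 20 differed (71.4%, beside 35.4% of genes taken with 1 probe each), 14 above and 6 below 0. In SN 3 rose (10.7%, beside 16.9% of all probes) and in DRG 1 (3.57%, beside 6.83%). The chaperone genes Sdf2l1 and Creld2 both rose by 1.09 in SN, with DRG changes of -0.20 and -0.17, and Trib3, induced by stress kinases, rose by 1.88 in DRG with 0.12 in SN. Of 23 genes of hypoxia, glycolysis and oxidative stress, 9 rose and 1 fell in SN (43.5%, beside 20.5% of all probes). In DRG 2 rose (8.7%, beside 6.83%), and 13 differed (56.5%, beside 35.4% of genes taken with 1 probe each). Hmox1, heme oxygenase 1, went from -0.96, -0.81 and -1.31 to 3.34, 2.72 and 3.63 in SN and from -0.60, -0.77 and -0.72 to -0.26, -0.42 and -0.32 in DRG, an interaction of 3.89 ± 0.25 (adjusted p 2.46e-10). Of 19 glucocorticoid-induced genes, 6 fell and 1 rose in SN (36.8%, beside 20.5% of all probes). In DRG 2 rose and 1 fell (15.8%, beside 11.3%). The tissues differed for 7 (36.8%, near the 35.4% of genes taken with 1 probe each), 2 above and 5 below 0. With slide as a term the split turned to 3 above and 1 below and the median interaction went from -0.37 to 0.02. Cdkn1a, an inhibitor of cyclin-dependent kinases, rose by 1.75 in DRG with 0.54 in SN.

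Of 29 genes of antigen presentation and the interferon response 6 differed (20.7%), 3 of them above 0, and with slide as a term 1 was called and the median interaction turned from 0.18 to -0.45. Among 17 circadian genes 6 differed (35.3%), all below 0, and with slide as a term 1 was called. Nfil3, a transcription factor of this list, had 0.54 in SN and 1.78 in DRG, and its difference lost the call with slide (adjusted p 0.062). Of the 23 T cell and cytotoxic lymphocyte markers 10 differed (43.5%), 8 above 0, and with slide 3 were called above and 3 below 0, with a median interaction of 0.06 in place of 0.65. Of 14 satellite glia genes 8 differed (57.1%), 2 above 0, and of 17 genes of endothelium and perineurium 9 did (52.9%), 3 above 0. These shares stand beside 35.4% of genes taken with 1 probe each. No marker of adipocytes (5 genes) or red blood cells (5 genes) differed, although 2 of the latter, Hbb and Alas2, rose in SN.

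The later days use the same 0 d arrays and are given as values only. Nerve only probes that rose had median SN changes of 1.63, 1.38, 1.3 and 1.0 on days 1, 4, 7 and 14, beside DRG medians between -0.01 and 0.12. Ganglion only probes that rose had median DRG changes of 1.46, 1.25, 1.22 and 1.43, beside SN medians between 0.09 and 0.19. The mean SN signal of S100a8 was -1.82 ± 0.283 at 4 d, and that of Nrg1 was -1.28 at 4 d and -2.58 at 14 d. Atf3 lay between 5.69 and 5.92 in DRG. Vip and Gal stood at 4.82 and 7.28 there at 14 d, above their 1 d means, while SN stood at -2.72 and 0.83. Top2a was above its 0 d mean in SN and below it in DRG on each later day, at -0.02, 0.11 and -0.45 in SN and -3.84, -3.71 and -3.98 in DRG. For Arg1 the order of the tissues turned, since at 4 d DRG stood at 2.84 and SN at 1.37.

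**Figure D5:**
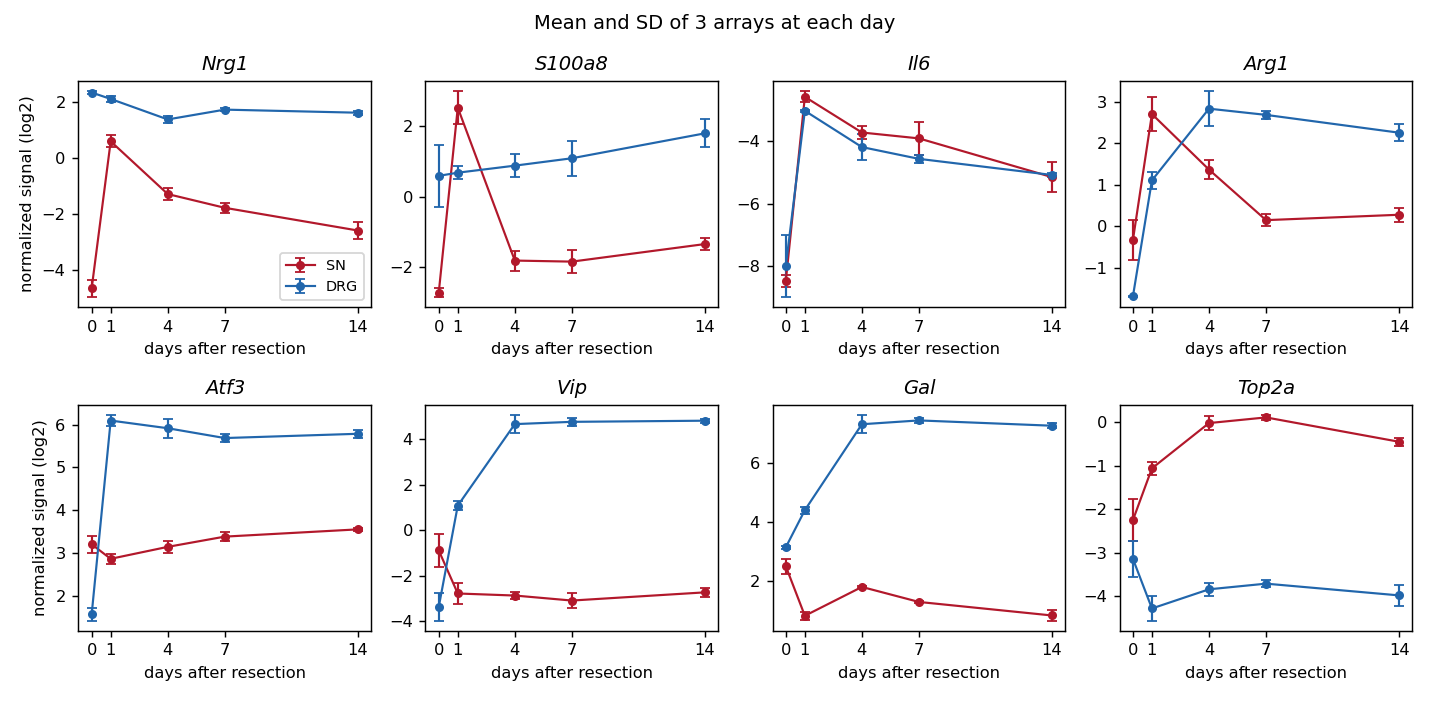
Normalized signal (log2, y axis) of 8 genes in SN (red) and DRG (blue) at 0, 1, 4, 7 and 14 d after resection (x axis), mean and SD of 3 arrays. Vip and Gal part further after 1 d, S100a8 in SN peaks at 1 d, and Arg1 in DRG passes SN at 4 d.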

How the data were processed

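RNA of SN and DRG was hybridized to single-colour Agilent rat arrays. Per the file headers the authors read each array with Agilent Feature Extraction 10.5.1.1, and the deposited processed intensity is background-subtracted and detrended within the array, with no scaling between arrays. The log2 values of the authors' deposited matrix have the same distribution on all 30 arrays and served as an alternative. The labels name 5 groups of rats and a column-based RNA kit, and the paper 10 groups and Trizol.

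Here, flagged spots and control spots were left out, log2 intensities averaged over the spots of a probe (41012 probes, 263 with several spots, 672 missing values) and each array's 75th percentile was subtracted. Well above background is the scanner software's own mark, and a probe had it on an array if 50% or more of its spots did. No spot was saturated. Gene symbols came from the array annotation (rn4), updated through RefSeq accessions, of which 13709 of 33592 matched the reference table (GRCr8, used for names and promoters, not for positions of probes), changing 3936 symbols.

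Models were fitted with limma 3.58.1 (R 4.3.3) on all 30 arrays in 10 groups, which share 1 estimate of the spread, tested on simulated data, with Benjamini-Hochberg adjustment over all probes. The members, gene lists and tests were chosen with earlier results of these data known. The genes named were the 4 of each class and direction with the largest interaction (same direction: the larger smaller change) among probes with a gene symbol, days not overlapping and that mark on all 12 arrays, the 3 with the largest bound among those undetected at 0 d, up to 2 each way per list, and genes the paper names that a list holds. Other list members are given as examples of their list. The 23 lists held 609 entries, 585 of them on the array, each by the probe with the highest mean signal. Arrays carry no read depth, and precision is limited by 3 arrays a group. Alternatives were other scalings, background correction, detection filters, samples, slide and replicate blocks, fold thresholds and leaving out each array. Some genes are not reported here.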

Additional observations from a re-analysis of the deposited data

Results flagged for a closer look

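The difference between the change in nerve and the change in ganglion, tested itself as an interaction in limma, was called for 12265 of 41012 probes. Among the named genes, 7 had changes called in opposite directions in the tissues. The SN change minus the DRG change was 2.58 for Ttk, 2.40 for Pbk, 2.33 for Top2a and 2.11 for Cdk1, which rose in SN and fell in DRG. It was -6.34 for Vip, -2.95 for Gal and -2.24 for Mapt, which fell in SN and rose in DRG. With slide as a term in the model, which leaves replicate 1 as the only DRG array at each day, these 7 differences kept their sign. They were 3.05, 2.61, 2.62, 2.48, -5.75, -2.81 and -2.63. The 7 genes had been chosen for large differences on the same arrays, so that a kept sign was likely from the choice. Groups of 3 arrays are too small for a test of single outlying arrays.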

How the results depend on the processing

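For the 35 genes named by class, 826 values under the alternatives were read. Each was the interaction or, for same direction genes, the smaller of the changes, with its adjusted p. Of these, 819 kept their direction and their side of the adjusted p threshold, and none turned. The other 7 lost the call, 6 for Zbtb16 (adjusted p 0.0831 to 0.185) and 1 for Tnmd (12 arrays alone, 0.0524). Whether a gene kept the 2-fold calls that set its class was not part of this. The 35 genes had been chosen for large values on these same arrays, so that most were likely to keep sign and call. The 819 values therefore do not speak for other probes. With normexp background correction and quantile normalization, 2 probes were up in SN and down in DRG. The counts moved more, and the cause was not tested. With normexp background correction and quantile normalization the calls fell to 2298 in SN, 387 in DRG, 1722 nerve only, 109 ganglion only, 202 same direction and 4 opposite direction. DRG calls, 4654 in the fit used, were 2830 in the authors' matrix, 2725 on 12 arrays, 2753 on the 15 arrays of the tissue, and by the methods' t-test 2670 unadjusted and 753 adjusted. Filters on dim probes left 2891 DRG calls (well above background in 1 of the 4 groups) and, with a group of each tissue required, 2643, with 264 ganglion only and 22 opposite. Restricting to probes well above background on all 12 arrays (added after seeing the data) gave 3514 SN and 686 DRG calls, 111 ganglion only, 483 same direction and 15 opposite, from fewer probes tested. A fold over 1.5 gave 7213 nerve only, 634 ganglion only, 3879 same direction and 211 opposite. The fit on 12 arrays gave 9783 interactions, 40 opposite and 221 falls in DRG, against 1852 such falls in the fit used. With slide as a fixed term (also added) 5155 interactions, 1917 nerve only and 240 ganglion only were called. That term leaves the change within a tissue without an estimate, so these classes join the SN and DRG calls of the fit used to its interaction. In DRG its interaction rests on replicate 1 alone at each day. Leaving out 1 array at a time gave 7826 to 8535 SN calls, 3077 to 5475 DRG calls, 10450 to 15313 interactions, 3194 to 4235 nerve only, 322 to 2325 ganglion only, 1647 to 2512 same direction and 35 to 154 opposite. The upper ends of the last and of ganglion only came without DRG 0 d replicate 1, the 3077 DRG calls without DRG 0 d replicate 2, and opposite fell to 35 without that replicate and to 37 without DRG 1 d replicate 2. Deviations of same-numbered arrays had a mean r of -0.005 over 18 pairs, which include pairs of different days. Between SN and DRG of the same day, r was -0.192, -0.184 and 0.316 at 0 d and 0.07, 0.086 and 0.072 at 1 d. These pairs are too few to show whether same-numbered arrays shared rats. The fit with the replicate number as a block gave 11904 interactions. Dim probes limit the ganglion falls.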
